A study of Tulipa gesneriana with 15 samples.

Results

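The onset of senescence in the flower of the garden tulip (Tulipa gesneriana) was described by comparing early senescence with full blooming. These are 2 of the 5 stages at which wild-type (WT) flowers were collected for RNA sequencing, with 3 libraries at each. The comparison therefore rests on 6 of 15 libraries, and on the 38396 of 76388 listed genes that reached 1 FPKM or more in at least 3 of these 6 libraries. FPKM is the number of fragments mapped to a feature per unit of its length and of the library's size. No agent or mutation is named in the labels. Libraries were made from whole flowers, so all floral organs are measured together, although the title of the study speaks of petals. In such bulk samples fewer cells of a type and less RNA per cell cannot be told apart. Nothing in the labels ties a library to a plant, so each p-value reflects the variation among libraries that may be technical repeats.

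Petal senescence is a regulated last phase of flower life, in which proteins, membranes and nucleic acids are broken down and sugars, nitrogen and phosphate are moved out to the rest of the plant. Proteases, nucleases and autophagy carry out much of the breakdown. In some species ethylene starts it, often after pollination, and in others the age of the flower sets its time. The deposited table gives each gene only as an identifier, with no name, position, sequence or function. None of these processes can therefore be tied to a gene here, the labelled tissue could not be checked against marker genes, and the results describe how many genes moved, how far, and where they stood before and after.

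One library of full blooming stood apart. Full blooming replicate 3 had 41044 genes at 1 FPKM or more, against 35738 and 35765 in replicates 1 and 2. In it 1359 genes held 50% of the summed FPKM, against 909 and 883 genes. Across the tested genes its log2(FPKM + 1) values correlated at 0.898 and 0.885 with the other full blooming libraries and at 0.909 on average with those of partial blooming. The early senescence libraries were alike, with correlations from 0.952 to 0.965, and the median within-stage SD over genes was 0.18 on the log2 scale, against 0.31 in full blooming. The depth of the libraries is unknown, since the table holds no read counts.

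Between full blooming and early senescence, expression of 4156 genes rose and that of 3384 fell. Together these were 19.6% of the genes tested, 10.8% rising and 8.81% falling (limma on log2(FPKM + 1), Benjamini-Hochberg adjusted p under 0.05, all 15 libraries sharing 1 estimate of the spread). The median change on the log2(FPKM + 1) scale was 1.16 among the genes that rose, with quartiles of 0.80 and 1.77. It was -1.005 among the genes that fell, with quartiles of -1.48 and -0.73. Over all tested genes the median was -0.05. Without full blooming replicate 3, 4134 genes rose and 3004 fell. With library quality weights, which let limma count a deviating library for less, 6238 rose and 5321 fell.

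Large changes were mostly rises. At 1 log2 unit or more, 2488 genes rose (6.48% of those tested) and 1701 fell (4.43%). At 2 or more, 822 rose and 425 fell. At 3 or more these were 334 and 119, and at 4 or more 160 and 32. The share of rises among the called genes thus grew with the size of the change, from 55.1% of all calls. Among the genes that rose, 4096 had every early senescence library above every full blooming library, and among those that fell 3341 had every one below. The background for such separation was high, since the stages were fully separated in 35.6% of all genes tested. Early senescence was above in 17.7% and below in 17.9%. The calls rest on the same libraries, so separation among called genes was largely given and adds no support to them.

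**Figure D1:**
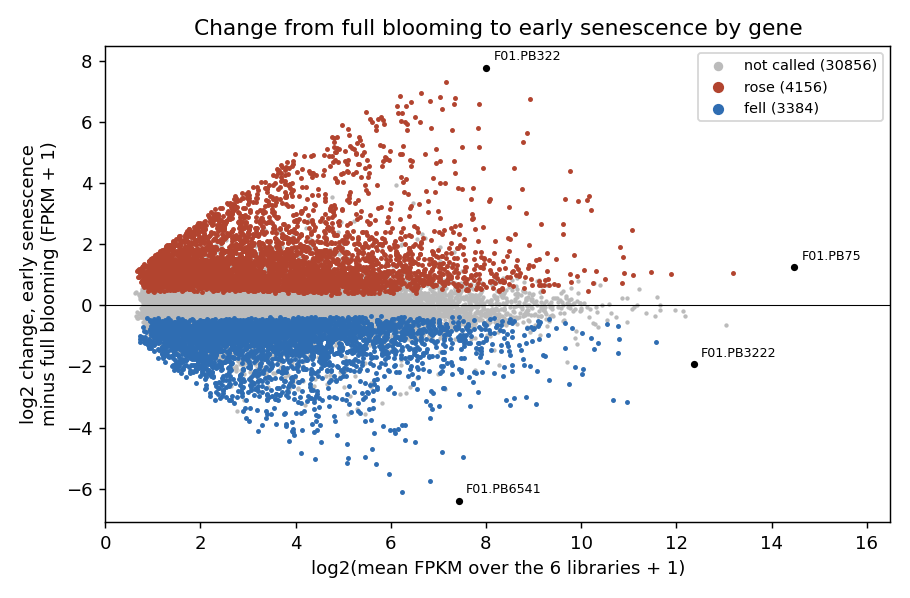
Log2 change from full blooming to early senescence for each of the 38396 tested genes (vertical axis, log2(FPKM + 1) units) against its level (horizontal axis, log2 of the mean FPKM over the 6 libraries plus 1). The 4156 genes that rose are red, the 3384 that fell are blue, the others are grey, and black points mark the 4 genes named in the text; rises reach 7.77 and falls -6.39.

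Abundant genes were called more often than scarce ones. Of the 1400 tested genes with a mean of 100 FPKM or more over the 6 libraries, 303 rose and 252 fell, 39.6% in all. Of the 11120 genes between 10 and 100 FPKM, 1634 rose and 1380 fell, or 27.1%. Of the 17732 genes between 2 and 10 FPKM, 16.9% were called, and of the 8144 genes under 2 FPKM, 12.1%. In each of these 4 classes more genes rose than fell. The median change of the called genes differed little between classes, from 1.04 to 1.21 for rises and from -1.09 to -0.89 for falls. The added 1 FPKM shrinks the changes of scarce genes. A call also depends on the spread of a gene's values, and how much of the gradient is a matter of detection was not tested.

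The most abundant genes were partly exchanged. Of the 100 genes with the highest mean FPKM in full blooming, 69 were also among the 100 highest in early senescence. Of these 69 shared genes, 13 rose and 6 fell. Of the 31 that entered the list in early senescence 24 rose, and of the 31 that left it 21 fell. Entry and exit are set by the same libraries as the calls, so the direction of these calls was given by the choice. The 100 genes highest in early senescence held 22.5% ± 0.298 (SD, n = 3) of the summed FPKM there, and 18.7% ± 2.56 in late senescence. Their share was 17.8% ± 3.55 at full blooming, where replicate 3 was the lowest at 13.8%, and 12.9% ± 0.404 at partial blooming. This list was chosen by its early senescence level, which favours a lower share at every other stage. When each library's own 100 highest genes were taken, they held 22.0% to 24.4% in late and 22.2% to 22.8% in early senescence. In full blooming they held 22.5% and 23.0% in replicates 1 and 2, near early senescence, and 18.6% in replicate 3.

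The gene with the largest rise in FPKM was also the most abundant of the table at both stages. F01.PB75 was at 13104, 14554 and 12873 FPKM in the full blooming libraries and at 34858, 33282 and 27770 in those of early senescence. The stages did not overlap, and the lowest early senescence library, replicate 3, was still well above the highest of full blooming. The change was 1.24 ± 0.22 (SE) on the log2 scale, with a limma adjusted p of 0.0012. This single identifier held 1.48% ± 0.0711 (SD, n = 3) of all summed FPKM in full blooming and 3.49% ± 0.353 in early senescence. Outside the comparison, buds were at 3660.4 ± 654 FPKM, partial blooming at 7235 ± 944 and late senescence at 43458 ± 8436. From buds to partial blooming it rose by 0.99 ± 0.22 (SE) on the log2 scale (limma adjusted p of 0.00853). The call at senescence onset was lost with no filter on low genes (limma adjusted p of 0.113). Quantile normalization, which gives the top rank of every library the same value, put the change at 0.

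The largest rise on the log2 scale was from almost nothing. F01.PB322 was listed at 0, 1.56 and 2.03 FPKM in full blooming and was at 573, 773 and 182 FPKM in early senescence. All early senescence libraries were far above those of full blooming, with replicate 3 the lowest. The change was 7.77 ± 0.72 (SE) on the log2 scale (limma adjusted p of 7.95e-06), and 9.25 with a pseudocount of 0.1. Among the libraries outside the comparison, those of partial blooming had 12.9, 0.31 and 2.7 FPKM and those of late senescence 2235, 1781 and 2110.3. From partial blooming to late senescence the change was 8.97 ± 0.72 (SE; limma adjusted p of 7.41e-07). Buds were at 2.47 ± 0.517 FPKM (SD, n = 3), so the gene stayed low through opening.

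The largest fall on the log2 scale was of a gene that had built up as the flower opened. F01.PB6541 was at 401, 417 and 201 FPKM in full blooming and at 3.27, 4.31 and 1.54 in early senescence. Full blooming replicate 3 was the lowest of its stage and still far above every early senescence library. The change was -6.39 ± 0.32 (SE) on the log2 scale (limma adjusted p of 8.67e-08), or -6.73 without that library. Before full blooming it had risen from 15.4 ± 3.98 FPKM (SD, n = 3) in buds to 126 ± 37.7 in partial blooming, by 2.94 ± 0.32 (SE) on the log2 scale (limma adjusted p of 4.31e-05). In late senescence it was at 17.9, 18 and 19.9 FPKM, above each library of early senescence and within the range of the bud libraries, from 12.9 to 19.95 FPKM.

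The largest fall in FPKM had a like course on opening and no later return. F01.PB3222 was at 9285 and 11387 FPKM in full blooming replicates 1 and 2 and at 4618 in replicate 3. The early senescence libraries were lower, at 1629, 2230.3 and 2457 FPKM, and no library of one stage reached the other. The change was -1.92 ± 0.34 (SE) on the log2 scale (limma adjusted p of 0.00129), or -2.31 without full blooming replicate 3. On opening the gene rose from 960.0 ± 350.4 FPKM (SD, n = 3) in buds to 7254 ± 971 in partial blooming (2.98 ± 0.34 SE on the log2 scale, limma adjusted p of 6.61e-05). In late senescence it was at 1650, 1198 and 1512 FPKM, which overlapped the range of early senescence.

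**Figure D2:**
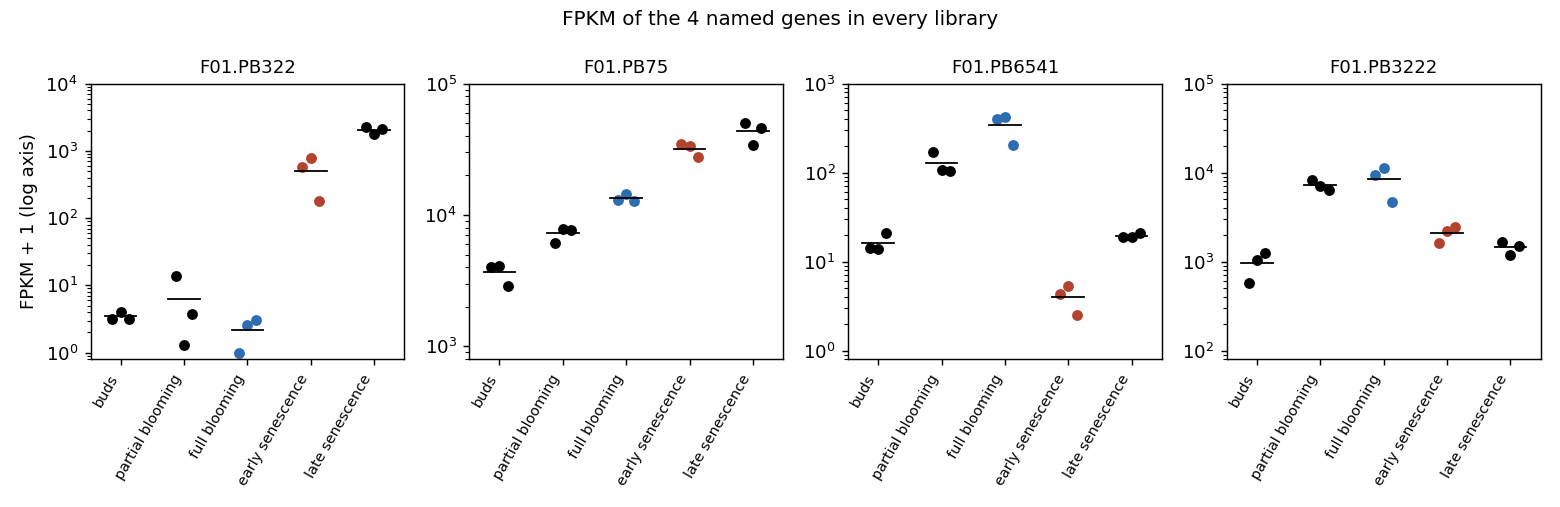
FPKM + 1 (log axis) of the 4 named genes in each of the 15 libraries, by stage, with replicates 1 to 3 from left to right and a line at the mean. Full blooming is blue and early senescence red; F01.PB322 and F01.PB75 are higher in every early senescence library, and F01.PB6541 and F01.PB3222 lower.

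The genes with the most extreme changes were also taken as groups. Eligible were the 2348 risen and 1935 fallen genes with no overlap between the stages and a mean of at least 10 FPKM in the higher one. The 20 largest rises on the log2 scale ran from 6.10 to 7.77. Their mean FPKM was between 0.103 and 8.23 in full blooming and between 87.3 and 967 in early senescence. All 20 were also called higher in late senescence than in partial blooming, against 23.1% of all tested genes, with a median level of 2.13 FPKM in partial blooming and 212 in late senescence. The 20 largest falls ran from 4.25 to 6.39 log2 units, from levels of 26.9 to 354 FPKM in full blooming to 0 to 11.1 FPKM in early senescence. Of these 20, 12 were called lower in late senescence than in partial blooming and none higher, against 18.4% and 23.1% of all tested genes. On opening, from buds to partial blooming, 9 had been called higher and 4 lower, against 8.26% and 7.59% of all tested genes. Their median level was 61.5 FPKM in partial blooming and 88.4 in full blooming, then 1.78 in early and 12.6 in late senescence. Both groups were chosen by these changes, so their levels in full blooming and early senescence show size only. The choice favours a full blooming level above partial blooming and an early level below late senescence among the falls.

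The 20 largest rises and the 20 largest falls in mean FPKM were also read as shares of the summed FPKM. The 20 largest rises in mean FPKM held 3.34% to 3.78% of the summed FPKM in the full blooming libraries and 8.35% to 10.1% in those of early senescence. They held 2.12% to 2.41% in partial blooming and 9.83% to 12.98% in late senescence. The 20 largest falls in mean FPKM held 4.82% to 5.01% in full blooming and 1.32% to 1.86% in early senescence. They held 5.78% to 6.82% in partial blooming and 1.48% to 2.50% in late senescence. Since the genes were chosen by these changes, the values in full blooming and early senescence show size only. The libraries of partial blooming and late senescence entered the choice through the shared estimate of the spread behind each call.

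The shares were also taken for all called genes together. Genes that rose held 12.03%, 12.04% and 10.4% of the summed FPKM in the full blooming libraries and 31.8%, 31.4% and 27.3% in those of early senescence. In libraries outside the comparison, they held 9.20% ± 0.125 (SD, n = 3) in partial blooming and 29.7% ± 3.75 in late senescence, where replicate 2 was the lowest at 25.4%. Genes that fell held 21.2%, 20.2% and 20.9% in full blooming and 7.74%, 7.57% and 9.47% in early senescence. In partial blooming they held 25.4% ± 0.729 and in late senescence 8.43% ± 0.816. In buds the genes that rose held 6.96% ± 0.174, and every bud library was below every one of partial blooming. The genes that fell held 27.6% ± 0.957 in buds. Without early senescence replicate 1, when 3084 genes rose, the risen genes held 6.68% in partial blooming and 25.02% in late senescence.

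**Figure D3:**
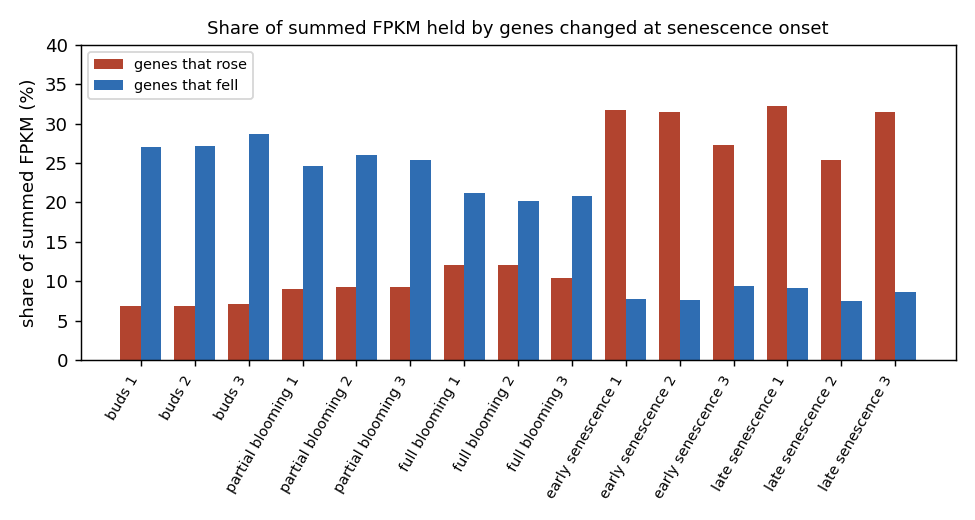
Share of the summed FPKM (%) held in each of the 15 libraries by the 4156 genes that rose (red bars) and the 3384 that fell (blue bars) from full blooming to early senescence. The red bars lie between 6.82% and 12.04% up to full blooming and between 25.4% and 32.3% from early senescence on, and the blue bars drop from at least 20.2% to at most 9.47%.

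Partial blooming and late senescence share no library with the comparison. They entered the choice of these genes only through the estimate of each gene's spread, which all 15 libraries share. Of the 4156 genes that rose at onset, 3162 were called higher in late senescence than in partial blooming, or 76.1%, against 23.1% of all tested genes. Another 108 were called lower, or 2.60%, against 18.4% of all tested genes. The median change between these stages was 1.21 on the log2 scale for the genes that rose and 0.08 for all tested genes. Of the 3384 genes that fell, 2218 were called lower in late senescence than in partial blooming, or 65.5%, and 90 higher, or 2.66%. Their median change was -0.90. The share of the fallen genes called lower was 74.5% without full blooming replicate 3. With quantile normalization 67.9% of the genes that rose were called higher, against 18.5% of all tested genes, and 72.3% of those that fell were called lower, against 25.96%. The summed FPKM was 861035 to 895350 in the partial blooming libraries and 1016148 to 1094997 in those of late senescence. With median-ratio scaling of the libraries 71.5% of the genes that rose were called higher, against 21.7% of all tested genes. Of those that fell 65.6% were called lower, against 20.75%. Apart from quantile normalization and this scaling, the part of the summed FPKM in these counts was not tested.

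Separate fits, each on the 6 libraries of its own stage pair, took away the shared spread. This alternative was chosen after the data were seen. At senescence onset 3326 genes then rose and 2304 fell. Of these risen genes 2561 were called higher in late senescence than in partial blooming, or 77.0%, and 89 lower, or 2.68%, against 23.2% and 17.5% of all tested genes. Of the fallen genes 1592 were called lower, or 69.1%, and 60 higher, or 2.60%. The median change from partial blooming to late senescence was 1.38 on the log2 scale for the risen genes and -1.09 for the fallen.

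Among rises, the larger the change at onset, the more often late senescence was also high. Of the 822 genes that rose by at least 2 log2 units, 758 were called higher in late senescence than in partial blooming, or 92.2%. Of the 334 that rose by at least 3, 327 were, or 97.9%. Falls did not follow this order. Of the genes that fell by at least 1, 2 and 3 log2 units, 68.0%, 65.6% and 70.6% were called lower in late senescence than in partial blooming. Among buds, partial blooming and late senescence, the highest mean was in late senescence for 88.1% of the genes that rose, against 41.6% of all tested genes. For the genes that fell it was in buds for 54.6% and in partial blooming for 39.2%, against 36.4% and 22.0% of all tested genes.

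**Figure D4:**
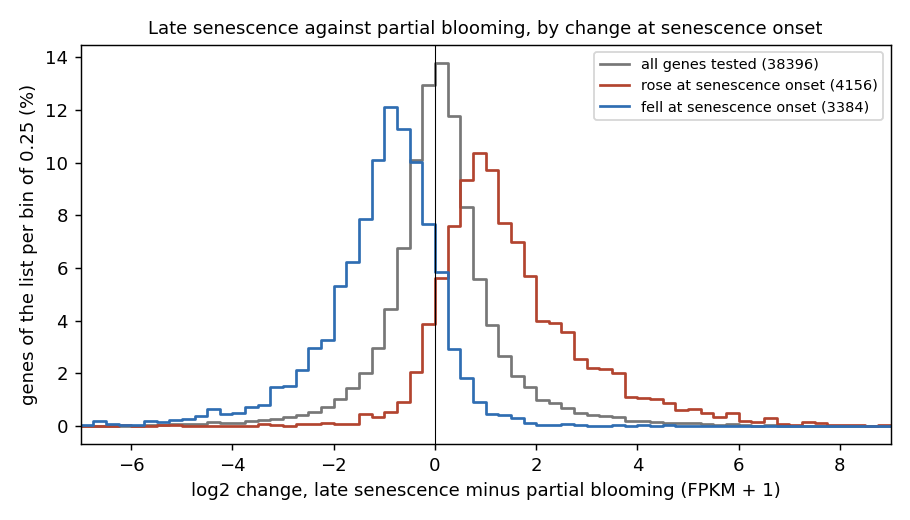
Distribution of the log2 change from partial blooming to late senescence (horizontal axis, log2(FPKM + 1) units) as the percentage of each list per bin of 0.25, for all 38396 tested genes (grey), the 4156 that rose (red) and the 3384 that fell (blue) from full blooming to early senescence. The libraries plotted entered the choice of the lists through the shared estimate of the spread; the red curve is centred at a median of 1.21 and the blue at -0.90.

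The opening of the flower, from buds to partial blooming, also shares no library with the comparison. Of the genes that rose at senescence onset, 666 had been called higher on opening, or 16.0%, against 8.26% of all tested genes. A further 250 had been called lower, or 6.02%, against 7.59% of all tested genes. This last count depended on single libraries. Leaving out bud replicate 1 or 2 gave 163 of 4082 or 166 of 4079 risen genes. Leaving out partial blooming replicate 1 or 2 gave 122 of 4032 or 141 of 3928. Leaving out full blooming replicate 3 gave 462 of 4134. Library quality weights gave 668 of 6238. Separate fits of each stage pair gave 166 of 3326, or 4.99%, against 8.07% of all tested genes. In the other settings the opening calls over all tested genes were not counted. A shift in opening calls as a whole therefore cannot be told apart from a shift in the listed genes. Of the genes that fell at onset, 581 had been called higher on opening and 569 lower. These were 17.2% and 16.8%, against 8.26% and 7.59% of all tested genes. The count of 581 was 1199 of 5321 fallen genes with library quality weights and 814 of 3004 without full blooming replicate 3. Leaving out each library in turn gave 416 to 814. Of the 119 genes that fell by at least 3 log2 units, 39 had been called higher on opening and 21 lower. These were 32.8% and 17.6%, against the same 8.26% and 7.59% of all tested genes.

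How far the flower had moved by early senescence was read from genes that differ between partial blooming and late senescence. For each library the median position of these genes was taken, with 0 at the mean of partial blooming and 1 at the mean of late senescence on the log2(FPKM + 1) scale. The filter used above asks for 1 FPKM in libraries of full blooming and early senescence, so it leaves out genes that rise only later. The genes were therefore chosen again after the data were seen, by a fit and a filter on the 6 libraries of partial blooming and late senescence alone. Of the 42343 genes tested in this way, 6803 were higher in late senescence by at least 1 log2 unit and called, and 3989 were lower.

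Over the genes higher in late senescence, the full blooming libraries stood at 0.0493, 0.125 and 0.154. The early senescence libraries stood at 0.557, 0.55 and 0.371, all above full blooming, and replicate 3 was the least advanced. Over the genes lower in late senescence, full blooming stood at 0.147, 0.23 and 0.135 and early senescence at 0.577, 0.582 and 0.468, again without overlap and with early senescence replicate 3 the lowest. The early senescence means were 0.493 ± 0.106 (SD, n = 3) and 0.542 ± 0.0643 over the higher and the lower genes. Buds, which come before partial blooming, also stood above 0, at 0.0399, 0.226 and 0.00666 over the higher genes. Over the lower genes they stood at 0.0644, 0.202 and 0.0821. Full blooming lay within the bud range over the higher genes and overlapped it over the lower. A position above 0 is therefore not by itself an advance towards late senescence. Every early senescence library was above every bud library.

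Which list had moved further depended on the filter. With the filter on full blooming and early senescence, which was the planned one, the lists held 5290 and 3858 genes and early senescence stood at 0.62 ± 0.0932 (SD, n = 3) over the higher and 0.502 ± 0.0626 over the lower. With genes filtered over all 15 libraries these means were 0.505 and 0.526. In all these settings each early senescence library was above each of full blooming.

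Single genes differed widely in position around these medians. Of the 6803 genes higher in late senescence, 3586 (52.7%) had by early senescence covered less than 0.5 of the way, and 848 (12.5%) had already passed their late senescence mean. The 3586 include 978 genes (14.4% of the 6803) that were below their partial blooming mean. Of the 3989 genes lower in late senescence, 1867 (46.8%) had covered less than 0.5 of the way and 762 (19.1%) were past the late senescence mean. The 1867 include 458 genes (11.5% of the 3989) that were above their partial blooming mean. In full blooming, 654 genes (9.61%) of the first list and 557 (13.96%) of the second were past 0.5. Such positions also occurred before partial blooming: in bud replicate 2 the upper quartile over genes was 0.622 in the first list and 0.599 in the second.

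**Figure D5:**
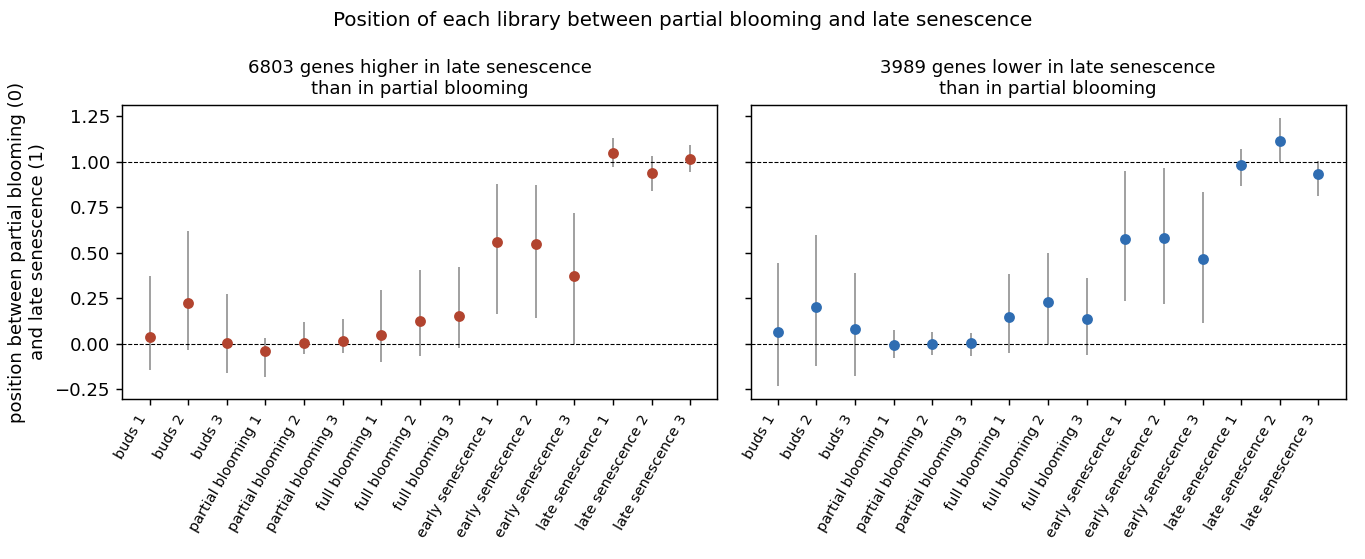
Median position of each library between partial blooming (0) and late senescence (1), over the 6803 genes higher in late senescence (left) and the 3989 lower (right); grey bars span the quartiles over genes. Early senescence libraries lie between 0.371 and 0.557 on the left and between 0.468 and 0.582 on the right, above every full blooming library; partial blooming and late senescence lie near 0 and 1 because the scale is set on them.

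Few genes were seen in all libraries of one stage and in none of the other. In the whole table, 106 genes (0.139%) were under 0.1 FPKM in all 3 full blooming libraries and at 1 or more in all 3 of early senescence. In the opposite direction there were 25 (0.0327%). The genes that appeared had a median mean of 3.83 FPKM in early senescence, 20 of them were at 10 or more, and the highest was at 61.0. In libraries outside the comparison, 81 of the 106 were at 1 or more in all 3 of late senescence, 58 were under 0.1 in all 3 of partial blooming, and 40 under 0.1 in all 3 of buds. Of the 25 genes that disappeared, 18 had been at 1 or more in all 3 partial blooming libraries and 14 in all 3 of buds, while 9 were at 1 or more again in all 3 of late senescence. Of all 76388 genes, 40772 to 42158 were at 1 or more in single late senescence libraries. These were 36674 to 38990 in partial blooming and 38364 to 41377 in buds. How many of all genes met the rules in all 3 libraries of a stage was not counted, so the counts at other stages stand without a background.

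Leaving out a library of either stage can only keep or raise these small counts, since the rule asks for all libraries of both stages. The higher counts that follow therefore do not measure how stable the rule is. The genes that appeared numbered 164, 190 and 163 without full blooming replicate 2, full blooming replicate 3 and early senescence replicate 3. Those that disappeared numbered 71, 51 and 48 when full blooming replicate 1, 2 or 3 was left out, and 55, 47 and 71 when early senescence replicate 1, 2 or 3 was. A listed 0 may also be an estimate that failed, and 56 of the genes that appeared are listed at 0 in all 3 full blooming libraries.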

How the data were processed

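Total RNA from whole flowers at 5 stages was sequenced from 3 libraries per stage. The authors deposited 1 table of FPKM values, written to 2 decimals; this unit is read from the table's name and values. The tools named, per the submitters' processing notes, are TopHat2 2.0.12, Bowtie2 2.2.3, DESeq 1.18.0 and HTSeq 0.6.1, with no role or order; reference and annotation: not given in the sources used here. Columns were matched to libraries by the codes in the labels. No whole-read steps were found in ratios of low values between libraries, so no count test was run and depth is unknown.

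On the log2(FPKM + 1) scale, limma 3.58.1 (R 4.3.3) was fitted with a mean-variance trend over all 15 libraries; tests were two-sided. Genes at 1 FPKM or more in at least 3 of the 6 libraries of full blooming and early senescence were tested, and called at an adjusted p under 0.05. The script was tested on simulated data. Replicate numbers did not pair the samples. No 2 libraries held identical values.

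The comparison, gene groups and alternatives were chosen with earlier results of these data known. Identifiers carry no names, so 4 were named: the largest rise and fall on the log2 scale and in mean FPKM, among called genes without overlap and with at least 10 FPKM in the higher stage. Alternatives were another pseudocount, other filters, 2 scalings, a replicate block, a fit on 6 libraries, library weights, no trend, other limits for genes on or off, and leaving out each library with the tested genes kept. Separate fits per stage pair, and lists for the position taken from other filters, were added after the data were seen; the positions plotted use the added list, because the planned filter acts on the stages it places.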

Additional observations from a re-analysis of the deposited data

How the results depend on the processing

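Under the alternatives 512 values were recomputed, and 443 of them held: a gene's call stayed, a count stayed within 1.5 times, and a position or share moved by less than its SD. Why the others shifted was not tested, except that fewer libraries or looser limits make the rule for genes on or off easier to meet. Part of the 443 was fixed in advance. Leaving out a library of buds, partial blooming or late senescence cannot change the counts of genes on or off. Nor can it change the log2 change of a named gene, though it can change its p. With library quality weights 6238 genes rose and 5321 fell, 668 risen genes were lower on opening and 1199 fallen genes were higher. With a pseudocount of 0.1 full blooming stood at 0.21 over genes higher in late senescence. With quantile normalization early senescence stood at 0.731 and 0.418 over the genes higher and lower in late senescence, and F01.PB75 changed by 0 (limma adjusted p of 1), because it holds the top rank. With median-ratio scaling fallen genes held 22.6% of the summed FPKM in partial blooming and 7.59% in late senescence. Genes that appeared numbered 56 when listed at 0 and 186 at under 0.5 against 2 or more, which gave 51 for genes that disappeared. The next alternatives were chosen after the data were seen. With separate fits per stage pair 166 of 3326 risen genes were lower on opening, or 4.99%, against 8.07% of all tested genes. In these fits risen genes held 6.91% in partial blooming and 24.3% in late senescence, and fallen genes 19.8% and 5.88%. Over genes higher in late senescence, full blooming and early senescence stood at 0.108 and 0.505 with genes filtered over all 15 libraries, and at 0.1095 and 0.493 with a fit and filter on partial blooming and late senescence alone; both turn the order of the lists.

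Leaving out each of the 15 libraries in turn gave 3084 to 4343 risen and 2281 to 3676 fallen genes, of which 2211 to 2609 and 1415 to 1835 changed by at least 1 log2 unit. Rises were 53.3% to 57.9% of the calls. Risen genes higher in late senescence than in partial blooming numbered 2471 to 3275, and fallen genes lower 1609 to 2238. Risen genes lower on opening numbered 122 to 462, and fallen genes higher 416 to 814. Risen genes held 6.68% to 9.77% in partial blooming and 25.02% to 32.4% in late senescence, and fallen genes 19.4% to 27.9% and 5.92% to 9.46%. With the planned filter, full blooming stood at 0.138 to 0.188 and 0.13 to 0.172, and early senescence at 0.595 to 0.677 and 0.448 to 0.539, over genes higher and lower in late senescence. Genes that appeared numbered 106 to 190 and genes that disappeared 25 to 71. Each named gene kept its direction and its call without any 1 library.

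Same-numbered libraries of the 2 stages did not deviate together, with correlations of deviations of -0.04, 0.07 and 0.05, and not every library correlated best with its own number. With a replicate block 3879 genes rose and 3109 fell. On the 6 libraries alone 3326 rose and 2304 fell. With the filter over all 15 libraries these were 4155 and 3241. The unknown depth limits what can be said of genes near 0.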
